A study of Mus musculus with 14 samples.

Results

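The comparison described here sets the Kit-Gr1- fraction of FDCPmix cells against the Gr1+ fraction across all genes measured. FDCPmix is a mouse progenitor line, labelled as bone marrow. It needs interleukin-3 to grow and keeps the capacity to form cells of more than 1 blood lineage. The members were the 3 arrays whose titles carry ECP (cell population Kit-Gr1-) and the 3 whose titles carry MCP (cell population Gr1+), 6 of the 14 arrays of the series, and the labels do not spell out either abbreviation. The other 8 arrays hold Kit+Gr1- cells (6, sorted high or low for Sca1) and unfractionated cells (2). All cells came from undisturbed maintenance culture in Fisher's medium low in tyrosine with 20% horse serum and 2% conditioned medium from WEHI cells as the source of interleukin-3, with no differentiating agent named. They were stained, sorted, lysed in Trizol, and 150 ng of RNA was labelled with Cy3. The design text calls the replicates biological, and the fractions are sorted portions of cultures of a single line. The labels give no Kit gate for the Gr1+ fraction. The comparison asks which genes differ between the Gr1-negative cells that had lost Kit and the cells that had gained Gr1.

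Red cell formation is directed by Gata1 with its partner Zfpm1 and by Klf1, which switch on globin, haem synthesis and membrane skeleton genes in cells that respond to erythropoietin. Granulocyte formation is directed by Spi1, the C/EBP family and Gfi1. Primary granule proteins such as myeloperoxidase and elastase are made first, and secondary granule proteins such as lactoferrin follow as the cells mature. Megakaryocytes share Gata1, Zfpm1 and Gfi1b with red cells, and eosinophils carry a granule set of their own.

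Levels are log2 signals relative to the 75th percentile of the same array, so 0 is that percentile and a step of 1 is a factor of 2. Differences are Kit-Gr1- minus Gr1+ with the standard error (SE) from limma, and a positive value means higher in Kit-Gr1- cells. Replicates 1, 2 and 3 of both fractions shared slides 1, 2 and 3, and slide was a block in the fit. Genes that differed at least 2-fold with p under 0.05 after Benjamini-Hochberg adjustment over all genes are the called genes. Between 81.3% and 95.9% of spots were well above background on the 6 arrays. Gr1+ replicate 3 stood apart: the interquartile range of its log2 signals was 3.04 against 4.17 to 4.84 on the other 5 arrays, and its levels correlated at 0.919 and 0.938 with the other Gr1+ arrays, which correlated at 0.983 with each other. Where a single array was left out below, the fit had no slide block.

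Of 29168 genes tested, 1618 (5.55%) were called, 593 higher in Kit-Gr1- cells (2.03%) and 1025 higher in Gr1+ cells (3.51%). The Gr1+ side also held more of the large differences. At least 16-fold, 123 called genes were higher in Gr1+ cells and 14 in Kit-Gr1- cells, and at least 64-fold the counts were 45 and 2. All 1612 called genes with no missing array had the same sign within each of the 3 slides. The fit rests on these within-slide differences, so a shared sign is nearly required for a call and adds no separate support. The arrays of the fractions did not overlap for 8441 genes (28.9%), and 1585 of the called genes were among them. The median difference over all genes was -0.17. Scaling by array medians moved that median to 0.14 and quantile normalization moved it to 0.12. With array medians, 48.3% of calls were higher in Kit-Gr1- cells against 36.7% under the scaling used here. Without slide 3 the counts were 915 and 1433, and 1533 of the 1618 genes were still called. In that fit and in the fit with array medians, limma took each gene's variance wholly from the trend with mean signal. The spread of a gene's own arrays did not enter, so these counts do not show how well the calls hold. Without Gr1+ replicate 3 alone the counts were 806 and 1056, without Kit-Gr1- replicate 3 alone 330 and 692, and without Gr1+ replicate 2 alone 346 and 590. When the variance prior was not allowed to follow the mean signal, 70 and 240 genes were called, which is the setting that lowered the counts most. Under it the calls fell to 12 of the secondary granule genes, 7 of the primary granule genes, 2 of the haemoglobin, haem and iron genes, 4 of the red cell membrane genes, 3 of the platelet genes, 7 of the eosinophil genes, 5 of the monocyte genes and 1 of the mast cell genes described here. That mast cell gene was Kit, on which the Kit-Gr1- cells were sorted.

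**Figure D1:**
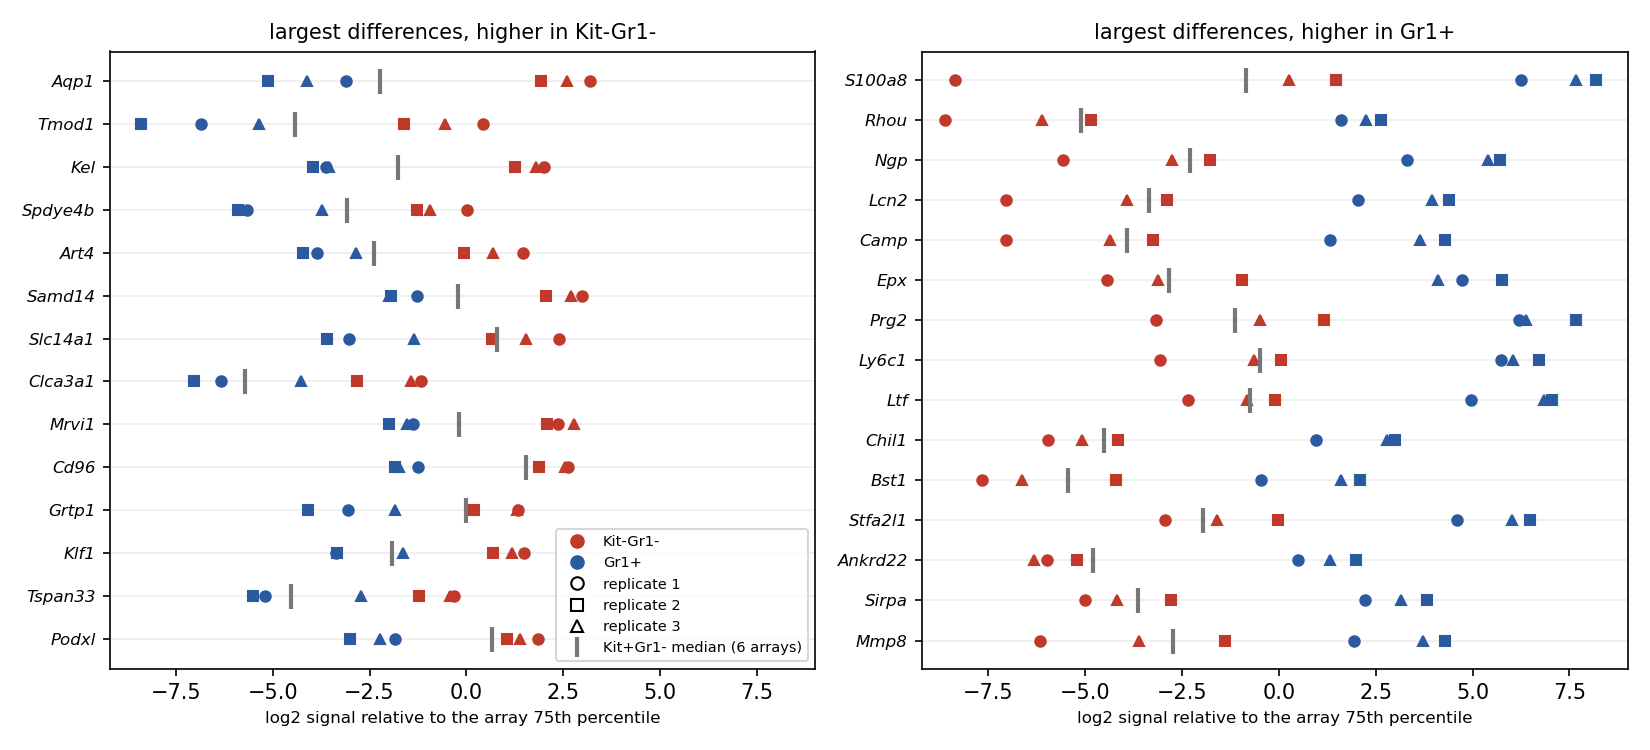
Levels of the called genes with the largest differences, 14 higher in Kit-Gr1- cells and 15 higher in Gr1+ cells (log2 signal relative to the array's 75th percentile, horizontal axis). Each mark is 1 array, with red for Kit-Gr1-, blue for Gr1+ and shape for replicate, and the grey bar is the median of the 6 Kit+Gr1- arrays. Kel sits at 1.25 to 2.01 in Kit-Gr1- cells and at -3.96 to -3.55 in Gr1+ cells. S100a8 in Kit-Gr1- cells spans -8.36 to 1.48.

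The markers named for the comparison separated the fractions on all arrays. Kel, the Kell blood group protein of the red cell surface, was at 2.01, 1.25 and 1.81 in Kit-Gr1- replicates 1 to 3 and at -3.62, -3.96 and -3.55 in Gr1+ replicates 1 to 3. The Kit-Gr1- arrays were all high and the Gr1+ arrays all low, and Kel differed by 5.40 ± 0.17 (42.1-fold, adjusted p = 2.06e-05). Gp1ba, a subunit of the platelet receptor for von Willebrand factor, was at 1.79, 1.53 and 2.25 against -1.99, -1.81 and -1.63, a difference of 3.66 ± 0.15 (12.7-fold, adjusted p = 5.54e-05). Epx, eosinophil peroxidase, ran the other way. It was at -4.45, -0.96 and -3.11 in Kit-Gr1- cells and at 4.73, 5.75 and 4.12 in Gr1+ cells, a difference of -7.71 ± 0.43 (209-fold, adjusted p = 0.000162). Its Gr1+ arrays were all higher, while the Kit-Gr1- arrays spread over a far wider range. Spi1, the myeloid and B lineage transcription factor also called PU.1, was at -3.16, -2.54 and -2.54 against -1.24, -0.98 and -0.93, a difference of -1.70 ± 0.20 (3.24-fold, adjusted p = 0.00307).

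The antigens of the gate are listed with their RNA only as a description, since the cells were sorted on their products. Kit was at -1.61, -1.84 and -2.04 in Kit-Gr1- cells and at 0.43, 0.97 and 0.61 in Gr1+ cells, where no Kit gate is given. Ly6c1, from the gene family whose products the Gr1 antibody binds, differed by -7.38 ± 0.40. Ly6a, which encodes Sca1, differed by -5.26 ± 0.21, from -3.21, -2.25 and -2.12 to 2.57, 3.05 and 2.58. Sca1 was not part of either gate by the labels.

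The erythroid label was checked against 4 markers, and they did not all point one way. Hba-a1, an adult alpha globin, was at 4.48, 3.54 and 4.23 in Kit-Gr1- cells and at 1.10, -0.32 and 0.32 in Gr1+ cells (3.72 ± 0.14, 13.2-fold, adjusted p = 3.84e-05). Klf1 and Epor were also called higher in Kit-Gr1- cells. Slc4a1, the anion exchanger band 3 of the mature red cell membrane, was at -2.05, -2.18 and -2.54 against -1.75, -2.31 and -1.97, and its arrays overlapped (-0.25 ± 0.23, adjusted p = 0.525). The Slc4a1 difference was above 0 under array median scaling (0.06). So 3 of these 4 erythroid markers were called higher in Kit-Gr1- cells and Slc4a1 was not, and the fraction is called Kit-Gr1- here.

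Promoters are shown for 3 of the markers and for Klf1 and Elane, a regulator and a granule gene with large opposite differences that were chosen after their values were seen. Each sequence is the 250 bases before the gene's RefSeq start on GRCm38.p6, read 5′ to 3′ on the gene's strand. Kel lies at chr6:41704326-41704575 on the minus strand, Gp1ba at chr11:70638872-70639121 on the plus strand, Epx at chr11:87875537-87875786 on the minus strand, Klf1 at chr8:84901732-84901981 on the plus strand and Elane at chr10:79886062-79886311 on the plus strand. Capitals mark matches, on either strand, to AGATAA or TGATAA (known for GATA factors), TTNNGNAA (C/EBP factors), GAGGAAGT (Spi1) or CCNCNCCC (Klf1), where N is any base. TGATAA was added to the search after these promoters were seen.
Kel: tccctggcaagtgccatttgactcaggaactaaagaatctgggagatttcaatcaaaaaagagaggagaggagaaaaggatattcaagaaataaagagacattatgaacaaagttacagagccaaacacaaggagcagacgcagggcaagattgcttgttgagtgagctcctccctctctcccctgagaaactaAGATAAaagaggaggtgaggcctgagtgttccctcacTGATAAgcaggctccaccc
Gp1ba: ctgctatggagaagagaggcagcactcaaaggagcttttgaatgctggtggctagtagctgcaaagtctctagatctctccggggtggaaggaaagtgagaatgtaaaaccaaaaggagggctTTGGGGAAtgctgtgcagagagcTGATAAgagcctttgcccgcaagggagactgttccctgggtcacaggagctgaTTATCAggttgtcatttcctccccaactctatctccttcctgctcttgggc
Epx: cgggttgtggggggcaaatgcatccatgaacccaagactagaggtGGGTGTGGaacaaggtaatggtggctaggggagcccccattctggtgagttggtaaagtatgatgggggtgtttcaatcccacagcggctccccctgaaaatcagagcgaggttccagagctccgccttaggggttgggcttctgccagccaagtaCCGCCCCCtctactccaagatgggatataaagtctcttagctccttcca
Klf1: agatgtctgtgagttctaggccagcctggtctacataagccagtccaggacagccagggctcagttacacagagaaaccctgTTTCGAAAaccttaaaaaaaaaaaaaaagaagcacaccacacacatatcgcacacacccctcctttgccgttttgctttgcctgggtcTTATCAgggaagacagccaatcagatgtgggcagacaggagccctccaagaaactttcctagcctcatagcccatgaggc
Elane: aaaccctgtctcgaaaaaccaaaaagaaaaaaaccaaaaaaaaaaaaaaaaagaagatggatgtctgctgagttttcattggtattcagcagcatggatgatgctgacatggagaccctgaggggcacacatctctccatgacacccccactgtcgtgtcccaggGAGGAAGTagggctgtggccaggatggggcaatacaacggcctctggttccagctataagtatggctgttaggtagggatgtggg
The Kel window held AGATAA at position -56 and TGATAA at -19, counted back from the start. The Gp1ba window held TGATAA on each strand, and the Klf1 window held it on the opposite strand at -80. Neither GATA motif was in the Epx or Elane window, and GAGGAAGT was in the Elane window at -85.

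Across the genes with a promoter entry, GATA motifs did not separate the sides. AGATAA was in 7.41% of 351 promoters of genes higher in Kit-Gr1- cells, 7.93% of 593 of genes higher in Gr1+ cells and 8.33% of 12580 of all genes tested. TGATAA was in 6.27%, 4.89% and 5.63% of the same 3 sets. GAGGAAGT was in 2.56%, 5.40% and 2.22%, TTNNGNAA in 28.8%, 36.9% and 32.6%, and CCNCNCCC in 68.4%, 61.6% and 57.4%. These shares are descriptions of letters in a window and were not tested.

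Aqp1, the water channel of the red cell membrane, had the largest difference on the Kit-Gr1- side. It was at 3.19, 1.92 and 2.58 in Kit-Gr1- cells and at -3.10, -5.12 and -4.10 in Gr1+ cells (6.68 ± 0.19, 102-fold, adjusted p = 1.57e-05). Tmod1, which caps actin filaments of the membrane skeleton, was not well above background on any Gr1+ array and under this scaling was at least 39.6-fold higher in Kit-Gr1- cells (adjusted p = 0.000957). With normexp background correction the Tmod1 difference was 3.30, which is under that bound. The measured means of Tmod1 were -0.58 in Kit-Gr1- cells and -6.86 in Gr1+ cells, and its 2 probes differed by 3.18 and 6.28. Other red cell surface genes among the 15 largest were Art4 (4.33 ± 0.33), the Dombrock blood group protein, and Slc14a1 (4.19 ± 0.43), the urea transporter that carries the Kidd antigens.

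The rest of the 15 were a mixed set. Samd14, which acts in Kit signalling of red cell precursors, was at 2.97, 2.07 and 2.70 against -1.27, -1.95 and -2.00 (4.32 ± 0.16, 20.0-fold). Mrvi1, a target of cyclic GMP signalling in platelets and smooth muscle, was at 2.37, 2.07 and 2.77 against -1.38, -2.01 and -1.53 (4.04 ± 0.15). Its other probe differed by 1.84. Cd96, a receptor known from T and natural killer cells, differed by 3.97 ± 0.15, Podxl, a sialomucin of progenitors and platelets, by 3.79 ± 0.15 (its other probe by 1.36), and Grtp1 by 3.93 ± 0.27. Spdye4b (4.36 ± 0.53), Clca3a1 (4.07 ± 0.52) and Tspan33 (3.82 ± 0.49), a tetraspanin of red cell precursors, were also in the group. Clca3a1 and Tspan33 lost their calls without Kit-Gr1- replicate 3 (adjusted p = 0.0681 and 0.0555), and the other Tspan33 probe differed by -0.10.

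Among 25 erythroid regulators tested, 8 were higher in Kit-Gr1- cells and none in Gr1+ cells. Their median difference was 0.50 against -0.17 over all genes, and with array medians it was 0.80 against 0.14. Without a variance trend 1 of them was called. Klf1 was at 1.49, 0.68 and 1.18 against -3.38, -3.34 and -1.64 (3.90 ± 0.36, adjusted p = 0.00119), with Gr1+ replicate 3 above the other Gr1+ arrays. Zfpm1, the Gata1 cofactor also called FOG1, had a mean level of 5.75 ± 0.45 (SD, n = 3) against 2.17 ± 0.46, from 5.23 to 6.02 against 1.66 to 2.56 (3.58 ± 0.11, adjusted p = 2.06e-05). It was the regulator of this list that was called under all 21 alternative settings. Epor, the erythropoietin receptor, was at 1.90, 1.10 and 1.78 against -1.49, -0.97 and -0.88 (2.70 ± 0.24, 6.51-fold). Gata1 itself differed less, at 2.53, 2.06 and 2.49 against 0.58, 0.34 and 0.09 (2.03 ± 0.15, 4.07-fold, adjusted p = 0.000568).

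Gfi1b, a repressor needed for red cells and platelets, differed by 2.21 ± 0.16, Tal1, a partner of Gata1 in its DNA-bound complexes, by 1.77 ± 0.15, Sox6 by 1.82 and Cbfa2t3, a corepressor in the Tal1 complex, by 1.13. Gata2, which is active in progenitors and mast cells, was not called (0.79 ± 0.26, adjusted p = 0.105). Its Kit-Gr1- arrays were at 4.22, 5.09 and 4.90 and its Gr1+ arrays at 4.30, 3.91 and 3.65, and without slide 1 the difference was 1.21 and was called, as it was without Kit-Gr1- replicate 1 (1.04). Nfe2, a regulator of platelet and globin genes, passed the adjusted p (0.0369) and stayed under 2-fold (0.54 ± 0.13). Myb, a progenitor regulator, was not called (-0.39 ± 0.11, adjusted p = 0.0664).

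**Figure D2:**
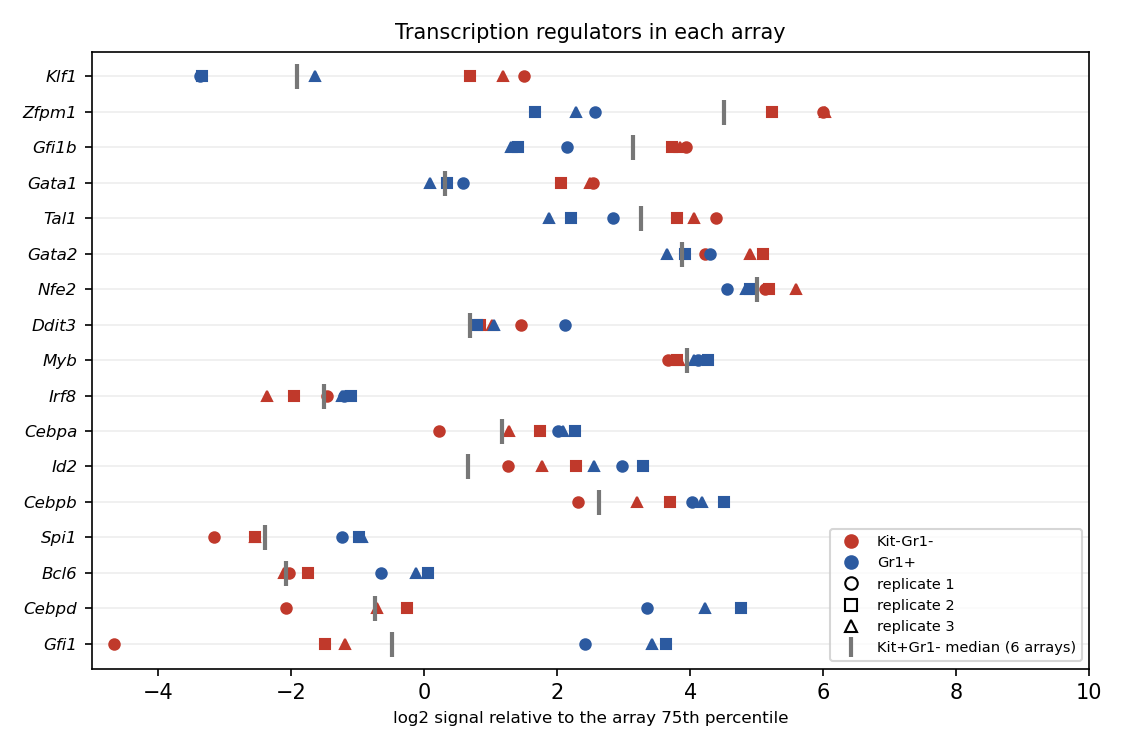
Levels of the lineage regulators on each of the 6 arrays (log2 signal relative to the array's 75th percentile), with red for Kit-Gr1-, blue for Gr1+, shape for replicate and a grey bar for the median of the 6 Kit+Gr1- arrays. Klf1, Zfpm1, Gfi1b, Gata1 and Tal1 are higher on all Kit-Gr1- arrays, and Gfi1, Cebpd, Bcl6 and Spi1 on all Gr1+ arrays.

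Of 28 genes for haemoglobin, haem and iron, 12 were higher in Kit-Gr1- cells and none in Gr1+ cells, with a median of 0.70. Alad, the second enzyme of haem synthesis, was at 4.94, 4.18 and 4.75 against 2.02, 1.86 and 2.20 (2.60 ± 0.14, 6.05-fold, adjusted p = 0.000129). Cpox (1.76), a later enzyme of the same pathway, was called as well. Alas2, the erythroid first enzyme (-0.15), and Fech, the last (0.91), were not.

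Globin genes shared the direction. Hbb-bt, an adult beta globin, was at 8.30, 8.15 and 8.51 against 6.63, 5.16 and 5.51 (2.55 ± 0.27, 5.87-fold). Hbb-y, an embryonic beta-like globin, was at 0.89, 0.00 and 0.82 against -1.35, -2.00 and -2.33 (2.47 ± 0.24, 5.52-fold). Hbb-bh1, also embryonic, differed by 1.48. These globin sequences are close to each other, and cross-hybridization between them was not tested.

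Of 36 red cell membrane and surface genes, 13 were higher in Kit-Gr1- cells and none in Gr1+ cells, with a median of 0.66. Beside those named, Car2, a carbonic anhydrase, differed by 3.68, Gypc, glycophorin C, by 1.96, Add2, adducin beta, by 1.95 and Icam4, the Landsteiner-Wiener blood group protein, by 1.55. Sptb (-0.09), Ank1 (0.01), Epb41 (0.04) and Epb42 (0.26), which join spectrin to the membrane or form it, were not called. Within slides the list medians were 0.88, 0.84 and 0.22 on slides 1, 2 and 3.

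Of 33 platelet and megakaryocyte genes, 10 were higher in Kit-Gr1- cells and 3 in Gr1+ cells, with a median of 0.71. Gp5, a partner of Gp1ba in the same receptor, was at 2.80, 1.98 and 2.64 against -0.23, -1.18 and -1.09 (3.31 ± 0.16, 9.90-fold). Gp9, the third chain, was at 3.26, 2.48 and 3.30 against -0.05, 0.40 and 0.33 (2.79 ± 0.23, 6.90-fold). Pf4, a platelet chemokine, was at 6.08, 4.78 and 5.51 against 2.93, 3.40 and 2.84 (2.40 ± 0.31), and Itga2b, the platelet integrin alpha chain CD41, at 4.61, 4.34 and 4.82 against 3.77, 2.94 and 3.00 (1.35 ± 0.19). Without slide 3 the counts of the list were 10 and 5. Lat (2.05), P2ry1 (1.58) and Clec1b (1.39), which act in platelet activation, were called too.

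The platelet genes higher in Gr1+ cells were F5, Thbs1 and Ppbp. F5, coagulation factor V, was not well above background on any Kit-Gr1- array and under this scaling was at least 6.28-fold higher in Gr1+ cells (adjusted p = 0.0470), while with normexp the F5 difference was -1.22, under that bound. The measured means of F5 were -7.15 in Kit-Gr1- cells and -3.36 in Gr1+ cells. Thbs1, thrombospondin, differed by -2.13 ± 0.50 and Ppbp, a platelet chemokine precursor, by -1.49 ± 0.32. None of these 3 held under all leave-outs. F5 lost its call without slide 1 or 2 (adjusted p 0.0547 and 0.222), Kit-Gr1- replicate 2 or 3 or Gr1+ replicate 2 (0.0725, 0.0938 and 0.0816). Ppbp lost it without any Kit-Gr1- array (0.0566, 0.0939 and 0.0903 for replicates 1, 2 and 3) and was under 2-fold without slide 2 (-0.96). Thbs1 lost it without any array but Gr1+ replicate 1, with adjusted p from 0.0893 to 0.191, and without slide 2 (0.128).

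**Figure D3:**
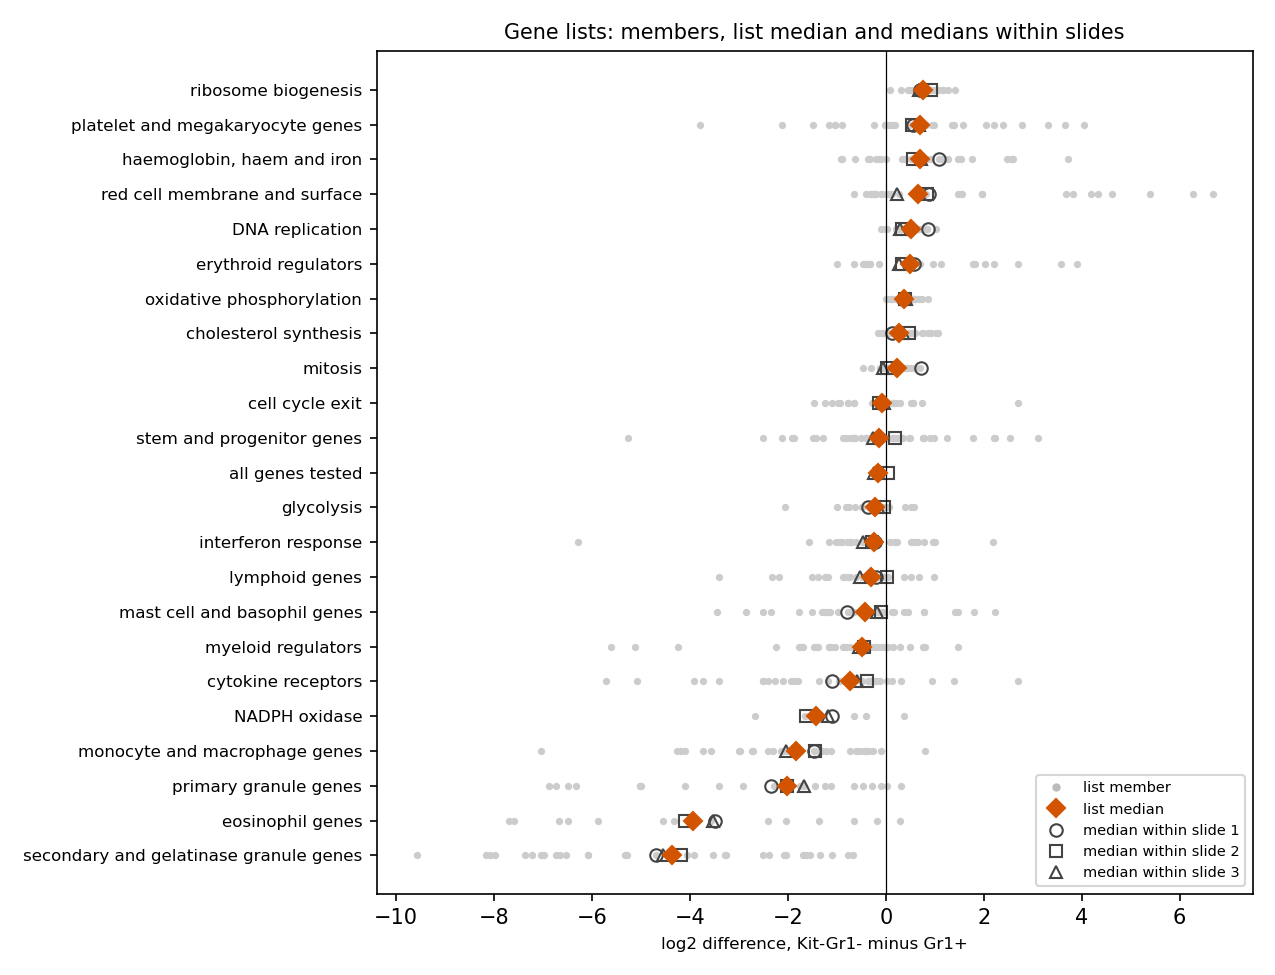
Differences of the tested members of each gene list (Kit-Gr1- minus Gr1+, log2 scale). Each grey point is 1 gene, the orange diamond is the list median, and the open circle, square and triangle are the medians within slides 1, 2 and 3. The secondary granule list has the lowest median, -4.37, and all 41 ribosome biogenesis genes lie above 0.

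On the Gr1+ side the largest differences were in granule genes. Of 32 secondary and gelatinase granule genes, 29 were higher in Gr1+ cells and none in Kit-Gr1- cells, with a median of -4.37. Ltf, lactoferrin, was at -2.36, -0.10 and -0.81 in Kit-Gr1- cells and at 4.95, 7.05 and 6.84 in Gr1+ cells (-7.37 ± 0.13, 165-fold, adjusted p = 6.02e-06). Ngp, neutrophilic granule protein, was at -5.58, -1.78 and -2.75 against 3.31, 5.70 and 5.41 (-8.18 ± 0.25, 289-fold). Lcn2, a siderophore-binding lipocalin, was at -7.04, -2.89 and -3.92 against 2.05, 4.38 and 3.96 (-8.08 ± 0.32). Lcn2 and Camp were well above background on 2 of the 3 Kit-Gr1- arrays, and with normexp they differed by -6.44 and -6.32. In Ltf, Ngp and Lcn2 replicate 1 was the lowest array of both fractions. Camp, the cathelicidin precursor (-7.97 ± 0.20), Stfa2l1, a stefin A protease inhibitor (-7.23 ± 0.23), and Mmp8, neutrophil collagenase (-7.04 ± 0.42), followed.

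S100a8, a subunit of calprotectin, had the largest difference of the named genes. It was at -8.36, 1.48 and 0.26 in Kit-Gr1- cells and at 6.26, 8.18 and 7.68 in Gr1+ cells (-9.58 ± 1.40, adjusted p = 0.00665). The value of -8.36 was not well above background, and the Kit-Gr1- arrays differed from each other by more than the gap between the fractions on slide 2 or 3. The call was lost without Kit-Gr1- replicate 3 (adjusted p = 0.0546) or Gr1+ replicate 2 (0.0969), and without Kit-Gr1- replicate 1 the S100a8 difference was -6.50. S100a9, its partner, was at -2.84, 4.84 and 3.64 in Kit-Gr1- cells and differed by -6.97.

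Of 22 primary granule genes, 16 were higher in Gr1+ cells and none in Kit-Gr1- cells, with a median of -2.02. Elane, neutrophil elastase, was at -3.74, -3.06 and -4.16 against 2.25, 3.87 and 3.16 (-6.75 ± 0.26, 107-fold, adjusted p = 4.04e-05). Mpo, myeloperoxidase, was at 2.31, 5.20 and 4.81 in Kit-Gr1- cells, and its Gr1+ mean was 9.12 ± 0.11 (SD, n = 3) (-5.01 ± 0.51, 32.3-fold). Prtn3, proteinase 3, differed by -5.01 and Ctsg, cathepsin G, by -1.67. The list was drawn wider than primary granule proteins. On it, Hp, haptoglobin, was at -2.67, 0.59 and 0.06 against 5.33, 6.83 and 6.43 (-6.87 ± 0.33, 117-fold). Clec5a, a lectin receptor, and Igsf6, an immunoglobulin family receptor, stood on the same list and differed by -6.33 ± 0.16 and -6.49 ± 0.14. The 5 genes of the list called under every alternative were Elane, Prtn3, Hp, Igsf6 and Clec5a.

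Myeloid RNA on the Kit-Gr1- arrays was uneven. The summed signal of the secondary granule list in Kit-Gr1- replicates 1, 2 and 3 was 3.64%, 7.02% and 5.39% of that in the Gr1+ array on the same slide. For the primary granule list the shares were 18.3%, 29.1% and 31.7%, and for the monocyte and macrophage list 7.12%, 16.9% and 15.6%. For the 13 eosinophil genes with a value on all 6 arrays the shares were higher, at 38.0%, 34.6% and 64.9%. A sum gives most weight to the brightest genes of a list. In Kit-Gr1- replicates 1, 2 and 3 Epx was at -4.45, -0.96 and -3.11 and Prg2 at -3.18, 1.16 and -0.48. The median level of the eosinophil list there was -2.75, -1.25 and -2.27. The eosinophil shares therefore reflect brighter list members and not Epx or Prg2. Kit-Gr1- replicate 1 was the lowest of its 3 arrays for 20 of 22 primary granule genes and 20 of 32 secondary granule genes, against 28.3% of all genes. The part that a few Gr1+ cells, or RNA from them, had in these levels was not tested. In RNA from whole fractions, fewer cells of a type and less RNA per cell cannot be told apart.

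**Figure D4:**
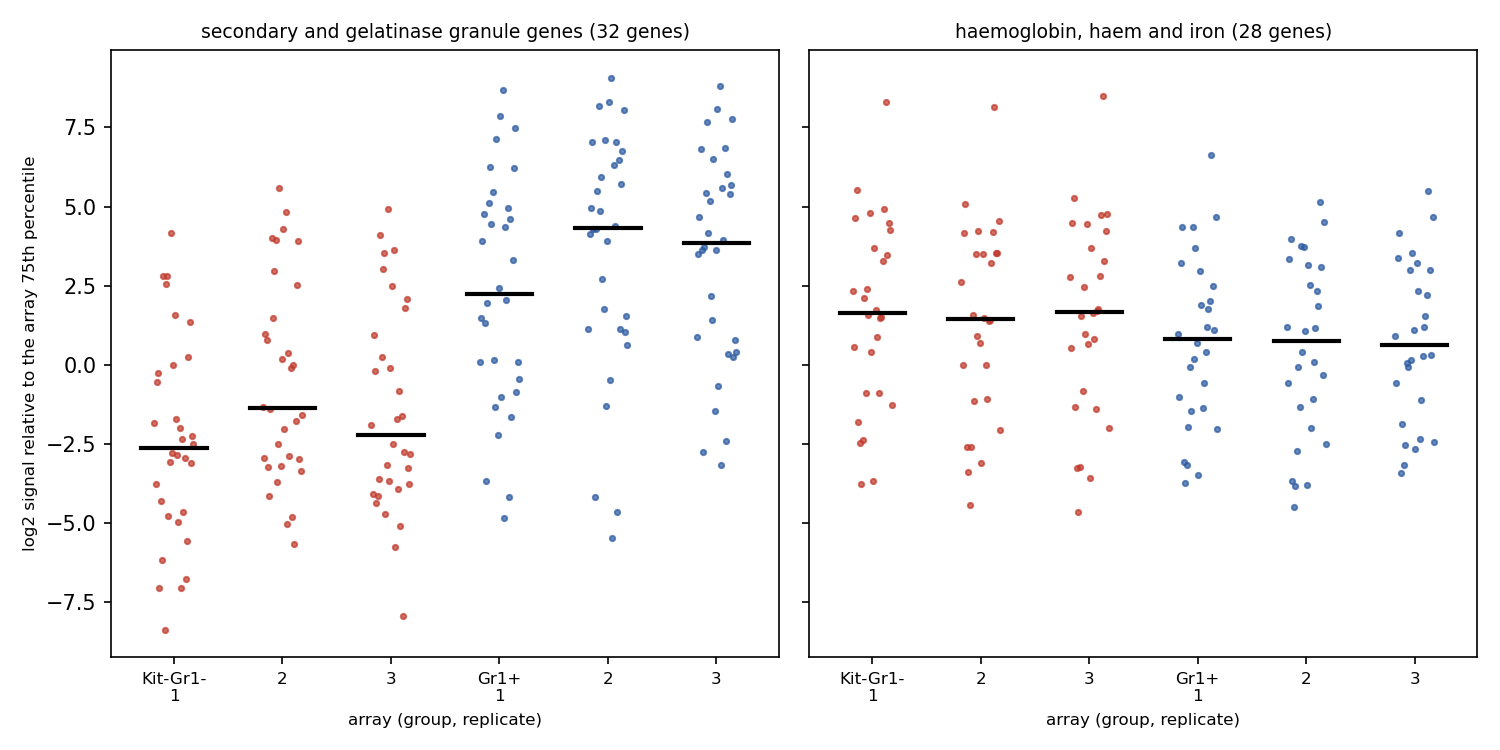
Levels of the 32 secondary and gelatinase granule genes (left) and the 28 haemoglobin, haem and iron genes (right) on each array (log2 signal relative to the array's 75th percentile). Each point is 1 gene and the black bar is the median of the list on that array. The granule medians are -2.64, -1.35 and -2.20 in Kit-Gr1- replicates and 2.24, 4.34 and 3.84 in Gr1+ replicates, and the haemoglobin list medians are 1.65, 1.45 and 1.67 against 0.82, 0.74 and 0.62.

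Eosinophil granule genes were higher in Gr1+ cells as well. Of 14 eosinophil genes, 11 were higher in Gr1+ cells and none in Kit-Gr1- cells, with a median of -3.95. Prg2, major basic protein, was at -3.18, 1.16 and -0.48 against 6.21, 7.68 and 6.38 (-7.59 ± 0.51, 192-fold). Prg3, its homologue, was at -3.35, -2.65 and -3.86 against 1.89, 3.62 and 2.26 (-5.87 ± 0.22, 58.6-fold). Ear6, an eosinophil-associated ribonuclease, differed by -6.50 ± 0.22 with Kit-Gr1- replicate 1 missing after its spot was left out. Ear10 was not well above background on any Kit-Gr1- array and under this scaling was at least 23.2-fold higher in Gr1+ cells (adjusted p = 0.000952, means of -8.16 and -1.47). With normexp the Ear10 difference was -2.62, which is under that bound. The ribonuclease genes of this family are close in sequence, and which of them each probe detects was not tested.

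Of 36 monocyte and macrophage genes, 21 were higher in Gr1+ cells and none in Kit-Gr1- cells, with a median of -1.83. Sirpa, an inhibitory receptor of myeloid cells that binds CD47, was at -4.99, -2.78 and -4.17 against 2.22, 3.81 and 3.16 (-7.05 ± 0.19, 132-fold), though its probes ranged from -7.05 to -2.31. Cd14, the lipopolysaccharide coreceptor, was at -1.12, -0.67 and -1.61 against 2.66, 4.06 and 2.65 (-4.26 ± 0.19, 19.1-fold). Ccl6, a chemokine, differed by -4.19 ± 0.42 and Lyz2, lysozyme, by -4.11 ± 0.17. Csf1r, the receptor for macrophage colony-stimulating factor, was at -1.41, -0.82 and -1.46 against 0.78, 1.76 and 0.98 (-2.41 ± 0.14, 5.30-fold), though its probes ranged from -2.41 to -0.90. The complement genes C1qa (-0.26), C1qb (-0.40) and C1qc (-0.09), made by mature macrophages, were not called.

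Rhou, a small GTPase, Ly6c1, Chil1, a chitinase-like protein, Bst1, an ectoenzyme of myeloid cells, and Ankrd22 complete the 15 largest on the Gr1+ side. Rhou differed by -8.68 ± 0.49, Chil1 by -7.31 ± 0.23, Bst1 by -7.25 ± 0.38 and Ankrd22 by -7.11 ± 0.28. Rhou and Bst1 were well above background on 1 Kit-Gr1- array each, and Ankrd22 on 2. With normexp Rhou differed by -5.76, Bst1 by -4.57 and Ankrd22 by -4.81.

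Of 38 myeloid regulators, 13 were higher in Gr1+ cells and none in Kit-Gr1- cells, with a median of -0.49 that was -0.19 with array medians. Without a variance trend 1 of the regulators was called. Gfi1, a repressor needed for neutrophil formation, was at -4.66, -1.49 and -1.19 against 2.41, 3.64 and 3.42 (-5.60 ± 0.43, 48.6-fold, adjusted p = 0.000601). Its close relative Gfi1b differed in the other direction, as given above. Cebpd, a C/EBP factor of maturing myeloid cells, was at -2.08, -0.25 and -0.71 against 3.35, 4.76 and 4.22 (-5.12 ± 0.13, 34.8-fold, adjusted p = 1.17e-05). Bcl6, a repressor, was at -2.03, -1.75 and -2.11 against -0.66, 0.06 and -0.12 (-1.73 ± 0.18, 3.31-fold). Trib1, a pseudokinase that targets C/EBP alpha for breakdown, differed by -4.24 ± 0.24 with Kit-Gr1- replicate 1 missing, and lost its call without Kit-Gr1- replicate 3 (adjusted p = 0.0728).

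The other C/EBP genes differed far less than Cebpd. Cebpa, needed for the first granulocyte step, was at 0.22, 1.74 and 1.28 against 2.01, 2.27 and 2.09 (-1.04 ± 0.24, 2.06-fold, adjusted p = 0.0314). The Cebpa difference was -0.61 without Kit-Gr1- replicate 1 and -0.67 without slide 1, both under 2-fold, and the call was lost without any array but Kit-Gr1- replicate 2 (adjusted p from 0.103 to 0.207). Cebpb, of emergency granulopoiesis and macrophages, was at 2.31, 3.70 and 3.19 against 4.02, 4.51 and 4.18 (-1.17 ± 0.18, adjusted p = 0.00821), and Id2, an inhibitor of helix-loop-helix factors, differed by -1.17 ± 0.18. Without Kit-Gr1- replicate 1, Cebpb differed by -0.79 and Id2 by -0.91, without slide 1 both differed by -0.90, and neither was called. Both also lost their calls without Kit-Gr1- replicate 3 (adjusted p = 0.140 for Cebpb and 0.112 for Id2), Gr1+ replicate 1 (0.0659 and 0.0618) or Gr1+ replicate 2 (0.167 and 0.125), and Cebpb without Gr1+ replicate 3 (0.0697). Ddit3, a stress-induced C/EBP relative, was not called (-0.22 ± 0.16, adjusted p = 0.436), nor was Irf8, a monocyte regulator (-0.74 ± 0.22, adjusted p = 0.0802), whose other probe differed by -2.64.

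Of 38 cytokine receptors tested, 2 were higher in Kit-Gr1- cells, Epor and Il18r1 (1.38 ± 0.18), and 14 in Gr1+ cells, with a median of -0.73 (-0.43 with array medians). Without a variance trend 8 were called. Kit, on which the Kit-Gr1- cells were sorted, was 1 of the 14 and 1 of the 8. Csf3r, the granulocyte colony-stimulating factor receptor, was at -5.67, -4.60 and -4.56 against -0.73, 0.80 and 0.35 (-5.09 ± 0.23, 34.0-fold, adjusted p = 7.67e-05). Csf2ra, the alpha chain for granulocyte-macrophage colony-stimulating factor, was at 1.22, 1.52 and 1.37 against 4.57, 5.66 and 5.07 (-3.73 ± 0.16, 13.3-fold). Il1r2, the decoy receptor for interleukin-1, differed by -5.71 ± 0.37 and Tnfrsf1a by -3.93 ± 0.19. The interleukin-3 receptor genes Il3ra (-0.37), Csf2rb (-0.52) and Csf2rb2 (-0.50) were not called.

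Of 8 genes for the NADPH oxidase and its proton channel, 5 were higher in Gr1+ cells, with a median of -1.42. None of the 8 was called without a variance trend or in either fit on all 14 arrays. Hvcn1, the proton channel, was at 0.65, 0.58 and 0.79 against 2.87, 3.74 and 3.43 (-2.67 ± 0.18), and Cyba, a membrane subunit, at 2.88, 3.18 and 3.38 against 4.37, 4.85 and 4.61 (-1.47 ± 0.12). Ncf1, a cytosolic subunit, differed by -1.65 ± 0.14 and lost its call without Gr1+ replicate 2 (adjusted p = 0.0730). The probes of Cybb, the catalytic subunit, disagreed in size, at -1.55 and -7.26.

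Mast cell and basophil genes showed no single direction. Of 32, 3 were higher in Kit-Gr1- cells and 6 in Gr1+ cells, and without slide 3 the counts were 4 and 11. Kit, on which the Kit-Gr1- cells were sorted, was 1 of the 6. It was the only gene of the list called under every alternative, and its call follows from the gate. Slc18a2, the vesicle monoamine transporter, was at 4.41, 4.37 and 4.66 against 2.63, 2.00 and 2.14 (2.22 ± 0.16, 4.67-fold). Prss34, a basophil protease, was at 0.12, 2.24 and -0.96 against 4.72, 4.76 and 2.22 (-3.44 ± 0.35), and lost its call without Kit-Gr1- replicate 1 or 3 or Gr1+ replicate 1 or 2 (adjusted p 0.110, 0.156, 0.0990 and 0.143). Cpa3, a mast cell protease, was at 5.01, 6.72 and 6.70 against 7.68, 7.56 and 6.87 and was not called (-1.23 ± 0.43, adjusted p = 0.125). The alpha chain of the high-affinity IgE receptor, Fcer1a, overlapped between the fractions at 6.10, 6.77 and 6.72 against 6.64, 5.64 and 4.97 (0.77 ± 0.39, adjusted p = 0.291). Without slide 1 the Fcer1a difference was 1.43 and was called, as it was without Gr1+ replicate 1 (1.22). The summed signal of this list in Kit-Gr1- cells was 39.1%, 85.4% and 112% of the Gr1+ array on slides 1, 2 and 3.

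Of 31 lymphoid genes, Il7r and Thy1 were called, both higher in Gr1+ cells. This share of 6.45% was near the 5.55% called over all genes. The B cell gene Cd79a (-0.30 ± 0.25) and the T cell gene Cd3e (-0.02 ± 0.14) were not. Thy1 lost its call without Gr1+ replicate 2 (adjusted p = 0.0921). The summed signal of the list was 211, 300.4 and 279 in Kit-Gr1- replicates and 214, 146 and 139 in Gr1+ replicates. Most genes did not share that lean, with 24 differences below 0 and 7 above. The list median was -0.30, and 0.01 with array medians.

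Stem and progenitor genes were called on both sides, 6 of 46 higher in Kit-Gr1- cells and 7 in Gr1+ cells, and their median of -0.13 turned to 0.17 with array medians. Kit, on which the Kit-Gr1- cells were sorted, was 1 of the 7. Slamf1, the CD150 receptor of stem cells, was at 0.59, -1.02 and -0.59 against -2.89, -3.89 and -3.56 (3.11 ± 0.21), though its other probe differed by 0.34. Mycn, a Myc family factor, was at 1.10, 1.22 and 1.72 against -0.58, -1.96 and -1.05 (2.54 ± 0.28), though its other probe differed by 0.70. Plac8, expressed in myeloid progenitors, was at 4.75, 6.04 and 5.91 against 7.34, 7.58 and 7.39 (-1.87 ± 0.23), and Cd34 differed by -1.48.

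Growth genes leaned to the Kit-Gr1- side by small amounts. All 41 ribosome biogenesis genes had differences above 0, with a median of 0.76, and 8 were called. Polr1e, a subunit of RNA polymerase I, was at 1.03, 1.21 and 1.50 against -0.11, -0.38 and -0.03 (1.42 ± 0.14, 2.67-fold, adjusted p = 0.00152), and Bms1, a ribosome assembly GTPase, at 2.19, 1.88 and 2.21 against 0.66, 0.78 and 1.02 (1.28 ± 0.13), with 0.53 on its other probe. The list median was 0.71, 0.92 and 0.68 within slides 1, 2 and 3. Without a trend in the variance prior, none of the 41 was called. All 31 oxidative phosphorylation genes also lay above 0, with a median of 0.37 (0.67 with array medians), and none reached 2-fold. Cycs, cytochrome c, was the highest of them (0.87 ± 0.13, adjusted p = 0.00723).

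Of 41 DNA replication genes only Tyms, thymidylate synthase, was called (1.02 ± 0.12, 2.03-fold), and it was under 2-fold without slide 1 (0.98), slide 2 (0.96), Kit-Gr1- replicate 2 (0.95) or Gr1+ replicate 1 (0.89). The called share of the list was 2.44%, against 5.55% of all genes. The list median was 0.52, and 0.83 with array medians. None of 40 mitosis genes was called. Their median was 0.22 in the fit, and within slides 1, 2 and 3 it was 0.71, 0.03 and -0.05. With array medians it was 0.52. Among 26 cell cycle exit genes Gadd45g, a growth arrest gene, was higher in Kit-Gr1- cells at 3.21, 3.38 and 3.64 against 1.15, 1.09 and -0.10 (2.70 ± 0.31). Btg1, an antiproliferative gene, was higher in Gr1+ cells (-1.47 ± 0.17) and lost its call without Kit-Gr1- replicate 3 (adjusted p = 0.0578) or Gr1+ replicate 2 (0.0554).

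The Kit+Gr1- cells of the same line, measured on 6 arrays, are set beside the fractions as a description with no test. For 961 of the 1025 genes higher in Gr1+ cells (93.8%), the Kit+Gr1- median lay on the Kit-Gr1- side of the midpoint between the fractions. For the 593 genes higher in Kit-Gr1- cells the count was 452 (76.2%), so for most of them too the Kit+Gr1- level was nearer Kit-Gr1-. Without the Kit+Gr1- arrays of slide 4, whose log2 signals had interquartile ranges of 2.37 and 3.42, the counts were 970 and 454.

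Called erythroid genes lay on both sides of the midpoint. Of the 15 largest on the Kit-Gr1- side, 10 had a Kit+Gr1- median nearer Gr1+ cells, and so had 9 of the 12 called haemoglobin, haem and iron genes. Of the 8 called erythroid regulators, 5 had a Kit+Gr1- median nearer Kit-Gr1- cells, as had 7 of the 13 called red cell membrane genes. Aqp1 had a Kit+Gr1- median of -2.22, Kel of -1.77, Klf1 of -1.92 and Hba-a1 of 0.14, all below every Kit-Gr1- array. All 8 called ribosome biogenesis genes were nearer Kit-Gr1- cells, as were all 15 of the largest on the Gr1+ side. Mpo had a Kit+Gr1- median of 5.76, above the Kit-Gr1- mean of 4.10 and below the Gr1+ mean of 9.12.

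**Figure D5:**
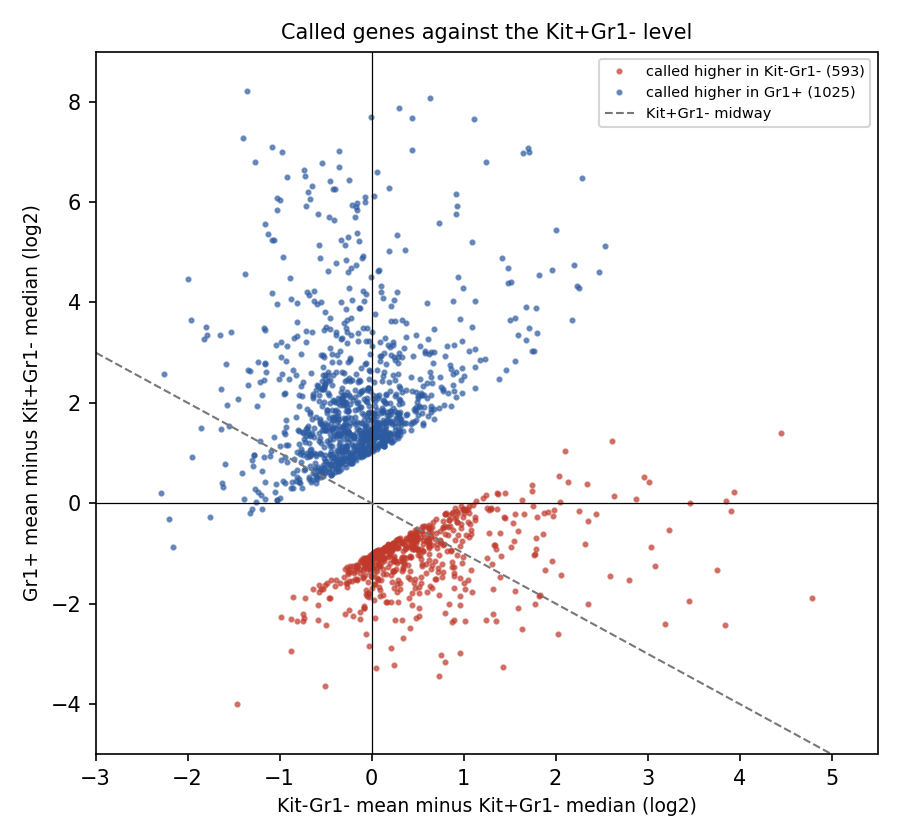
Called genes against the Kit+Gr1- level. The horizontal axis is the Kit-Gr1- mean minus the median of the 6 Kit+Gr1- arrays and the vertical axis the Gr1+ mean minus the same median (log2), with red for the 593 genes higher in Kit-Gr1- cells and blue for the 1025 higher in Gr1+ cells. On the dashed line the Kit+Gr1- median is midway between the fractions, and 961 blue and 452 red genes lie on its Kit-Gr1- side.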

How the data were processed

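Expression was measured with Agilent 1-colour (Cy3) arrays read by Agilent Feature Extraction 10.1.1.1, per the file headers. From the deposited scanner files the processed signal of each spot was used, a linear intensity that the authors' scanner software corrected for background. The authors' deposited series matrix is on the log2 scale and equals the log2 of that signal without further scaling, and it served as an alternative. Control spots and spots flagged as outliers were left out, so 123 of the genes tested lacked at least 1 array. Spots of a probe were averaged, and log2 signals were set relative to each array's 75th percentile. A probe was kept if 3 or more of the 6 arrays had it well above background, and the probe with the highest mean stood for its gene, with unnamed probes kept as they are. Symbols came from the files and RefSeq.

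Differences were fitted with limma 3.58.1 in R 4.3.3 (lmFit and eBayes with a trend, slide as a block, 2 residual degrees of freedom) and adjusted by Benjamini-Hochberg over all genes. An exact permutation test of 3 arrays against 3 cannot go below p = 0.1. In data simulated for this comparison over 29045 genes, 42% of log2 changes of 1 and 100% of changes of 2 or more were recovered, with 0 false calls. The simulated noise was Gaussian with the same SD of 0.24 for every gene, without slide effects or a deviant array. The real arrays differ in these respects, so the simulation does not give their rates of recovery or false calls. A fold given as "at least" sets the higher group's mean against the lowest signal among probes well above background. Array number limits the precision. The p-values measure the spread left between these arrays after the slide block, borrowed in part from genes of similar mean signal.

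Each replicate number lies on 1 slide for both fractions, per the files. Deviations from the group means of same-numbered arrays correlated at 0.21, 0.13 and -0.05. Those of differently numbered arrays correlated at -0.40 to 0.32, so these values do not show a pairing by number. Named genes are the 15 largest called differences on each side with arrays apart and all arrays of the higher group well above background, the markers, the gate antigens, 17 regulators, and from each list up to 4 called genes a side, or up to 2 where none was called. Other list members are given as values and were picked by role. The members and lists were chosen with earlier results of these data known. Mean signals are not used here, so normexp ran on median signals (offset 50). Cebpe, Ly6g, Ly6c2 and Cd8a gave no value. Some named genes are not reported here, though counts and medians of lists include them. Promoters are from RefSeq on GRCm38.p6. Tables were handled with pandas 2.3.3 and numpy 2.4.6 in Python 3.11.15, and plots were drawn with matplotlib 3.10.9.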

Additional observations from a re-analysis of the deposited data

How the results depend on the processing

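The counts of called genes (593 higher in Kit-Gr1- cells and 1025 in Gr1+ cells) moved by over 1.5 times, on at least 1 side, under array medians, both fits on all 14 arrays, a prior without a trend, and without slide 3, Kit-Gr1- replicate 3 or Gr1+ replicate 2. Scaling by array medians gave 1077 higher in Kit-Gr1- cells. A fit on all 14 arrays gave 199 and 357 without a replicate block and 283 and 439 with slide as the replicate block. A variance prior without a trend gave 70 and 240. Leaving out 1 slide gave 501 to 915 higher in Kit-Gr1- cells and 741 to 1433 in Gr1+ cells. Leaving out 1 array, with no replicate block, gave 330 to 806 and 590 to 1067, with 346 and 590 without Gr1+ replicate 2. Within 1.5 times, the 6 arrays gave 556 and 990 without the replicate block. The causes of these shifts were not tested. The same 199 genes, 53 higher in Kit-Gr1- cells and 146 in Gr1+ cells, were called under the reported setting and all 21 alternatives. All 109 called named genes kept their direction under those alternatives, and 37 of them were called under every one. Dim probes limit the size of the largest folds: normexp gave -5.76 for Rhou, -4.57 for Bst1, -2.62 for Ear10 and 3.30 for Tmod1. Of the 23 list medians, 14 moved by more than their spread between slides under array medians, 6 under normexp and 3 under quantile normalization.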

Other observations

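Among interferon, glycolysis and cholesterol genes, 3 of 27, 2 of 20 and 2 of 23 were called, against 5.55% of all genes, and none of these 7 was called without a variance trend. Of 27 interferon response genes, Usp18, which removes the ubiquitin-like protein Isg15, was higher in Kit-Gr1- cells at 0.36, 0.96 and 1.02 against -1.37, -1.82 and -1.01 (2.19 ± 0.22, adjusted p = 0.00158). Cxcl10, an interferon-induced chemokine, was higher in Gr1+ cells at -5.88, -6.67 and -7.91 against -1.64, 0.74 and -0.67 (-6.30 ± 0.66), with 1 of the Kit-Gr1- arrays well above background. Isg15 was called at -1.15 ± 0.28 and lost the call under 16 of 21 alternatives.

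Of 20 glycolysis genes, Hk3, a myeloid hexokinase, was at 1.31, 2.71 and 3.23 in Kit-Gr1- cells and at 4.21, 4.56 and 4.65 in Gr1+ cells (-2.06 ± 0.26), and lost its call without Gr1+ replicate 2 (adjusted p = 0.0717). Pfkfb4, a regulator of glycolytic flux, differed by -1.01 ± 0.11. Of 23 cholesterol synthesis genes, Lss (1.07 ± 0.15) and Msmo1 (1.02 ± 0.14) were called higher in Kit-Gr1- cells, and both sat close to the 2-fold limit.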
